A study of Mus musculus with 14 samples.

Results

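Uts2r, Plch2, Dgkk and Dagla are 4 genes of phospholipase C and diacylglycerol signalling. They were chosen by symbol with the RNA and methylation differences between the tumour groups known: Plch2 and Dgkk as lipid signalling enzymes, Uts2r as a receptor upstream of phospholipase C, and Dagla for intronic CpG methylation, of which the site table held 1 site. The RNA table used here held 3 of them among 1324 genes. Of the 4327 CpG sites listed by the authors, 6 were annotated to Dagla or flanked Dagla or Dgkk, and none of the 139 listed regions was annotated to any of the 4. Of 589 listed pairs of a gene and a site, 5 involved a member: Dgkk was paired with 4 sites, and the site flanking Dagla was paired with Syt7.

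The samples were mammary tumours from FVB offspring of about 25 weeks of age carrying the SV40 Tag transgene, whose product, the large T antigen, inactivates the p53 and retinoblastoma proteins. The transgene's promoter and the sex of the animals are not stated in the labels. Both groups carried the transgene and were kept on control diet, and they differed in the diet of the mother, which was control chow or chow with 250 mg/kg genistein (GE), a soy isoflavone that binds estrogen receptors, given from 4 weeks of age until weaning (labelled Maternal LT-GE). RNA-seq had 3 control and 4 maternal genistein libraries. So had reduced representation bisulfite sequencing (RRBS), which measures CpG methylation in a size-selected part of digested DNA. The labels do not say whether libraries of a group came from separate litters, so errors measure the spread between these samples only.

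Receptors that couple to Gq proteins switch on phospholipase C, which splits a membrane phosphoinositide into diacylglycerol and inositol trisphosphate. Inositol trisphosphate releases calcium, and diacylglycerol recruits protein kinase C and Ras activators to the membrane. The diacylglycerol signal ends when a diacylglycerol kinase turns the lipid into phosphatidic acid or a diacylglycerol lipase cuts it, which yields the endocannabinoid 2-arachidonoylglycerol. Uts2r encodes the receptor of urotensin II, a vasoactive peptide, and couples to Gq. Plch2 encodes phospholipase C eta 2, a calcium-sensitive enzyme best known from neurons. Dgkk encodes diacylglycerol kinase kappa, and Dagla encodes diacylglycerol lipase alpha.

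RefSeq promoter windows on GRCm38.p6 were held for Uts2r, Plch2 and Dgkk. The 250 bases before an annotated start are shown for these 3 genes because RRBS samples the genome near restriction sites. The sequence CCGG, a palindrome that reads the same on both strands and is the usual cut site in RRBS, is in capitals. The labels do not name the enzyme used here. The Uts2r window is chr11:121160021-121160270 on the plus strand, the Plch2 window chr4:155019429-155019678 on the minus strand, and the Dgkk window chrX:6779056-6779305 on the plus strand.
Uts2r: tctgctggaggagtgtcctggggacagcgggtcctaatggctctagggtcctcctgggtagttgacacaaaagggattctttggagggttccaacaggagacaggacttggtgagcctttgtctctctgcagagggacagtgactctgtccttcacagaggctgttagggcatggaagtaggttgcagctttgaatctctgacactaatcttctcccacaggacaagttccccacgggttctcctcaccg
Plch2: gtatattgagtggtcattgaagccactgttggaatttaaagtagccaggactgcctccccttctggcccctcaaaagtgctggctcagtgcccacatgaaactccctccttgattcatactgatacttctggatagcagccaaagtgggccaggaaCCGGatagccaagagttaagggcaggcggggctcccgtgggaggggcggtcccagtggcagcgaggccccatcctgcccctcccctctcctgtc
Dgkk: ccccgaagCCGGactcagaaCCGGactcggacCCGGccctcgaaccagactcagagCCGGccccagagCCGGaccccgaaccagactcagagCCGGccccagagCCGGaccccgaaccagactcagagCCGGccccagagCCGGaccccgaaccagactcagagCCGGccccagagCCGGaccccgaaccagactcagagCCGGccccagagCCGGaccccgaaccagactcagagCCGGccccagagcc
The Dgkk window held 14 copies of CCGG and 22 CpGs, the Plch2 window 1 copy and 5 CpGs, and the Uts2r window no copy and 3 CpGs. No other of 32851 promoter windows of this length held as many copies as the Dgkk window, and 47.1% of all windows held at least 1. A second annotated Plch2 start, with its window at chr4:155011026-155011275, had no copy and 1 CpG. Both Plch2 windows lie inside the annotated span of the gene, 154983115 to 155064091. On the minus strand its outermost start is at the upper end of that span, so neither window describes that start. The Dgkk window is a tandem repeat, in which 94.4% of bases matched the base 36 positions further on. The 4 listed Dgkk sites lie beyond this window, on the other side of the annotated start. The site table implies a different Dgkk start, as described below. Whether this window acts as a promoter was not tested.

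Direction came from an indirect reading, since no column name of the RNA table says which group its fold change has on top. Positive values are taken here as higher in maternal genistein tumours, because maternal genistein libraries had more RRBS reads on chromosomes where positive genes were common. The Pearson's r was 0.90 over 20 chromosomes, and 0.93 over the 16 chromosomes that hold none of the 4 genes. No single chromosome had a coverage difference with an exact permutation p under 0.05 (smallest 0.0571, smallest adjusted 0.317). The share of positive genes was taken over 104 listed genes on chromosome 4 and 68 on X, fewer than in the counts given below. These points share the same 7 RRBS libraries, the reading assumes that expression follows DNA dosage, and the opposite reading would turn every RNA direction given here. Adjusted p-values in the authors' deposited table equal those of 18425 tested genes, of which the 1324 listed genes are 7.19%. By the same arithmetic 1521 genes had a DESeq adjusted p under 0.05, so absence from the table used here does not show that a gene was not called. "Called" below means listed at that threshold.

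Of the 4 members, 3 were called, all higher, beside 4.17% of tested genes that were listed and higher. Because these contrasts chose the members, the share is given as a description only. Uts2r had a log2 fold change of 8.48 (SE 0.72) in the authors' deposited table, with a mean normalised count of 605 over all libraries. For Plch2 the authors' deposited table gave 4.40 (SE 0.35), at a mean of 1548 normalised counts. For Dgkk the authors' deposited table gave 7.30 (SE 2.01), at a mean of 121 normalised counts. Plch2 thus had the smallest fold of the 3 and the highest count, while Dgkk had a large fold at a low count. Among all listed genes in the authors' deposited table, Uts2r and Dgkk ranked 2 and 3 by positive fold, and Plch2 ranked 53. By p-value Plch2 and Uts2r ranked 2 and 3, and Dgkk ranked 634, in the authors' deposited table.

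If each fold is taken as the ratio of group means, these values correspond to about 2.96 normalised counts in control and 1056 in maternal genistein tumours for Uts2r. The same arithmetic gives about 124 and 2616 for Plch2, and about 1.34 and 211 for Dgkk. Under the opposite reading of direction the control and maternal genistein means would be about 1406 and 3.94 for Uts2r, 3397 and 161 for Plch2, and 281 and 1.78 for Dgkk. Under either reading Uts2r and Dgkk were at under 4 normalised counts in the lower group, and Plch2 was not. These are means derived from the authors' deposited table, and levels in single tumours were not analysed here. In bulk tumour RNA, fewer cells of a type and less RNA per cell cannot be told apart.

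The standard errors set the genes apart. Dgkk had the largest SE of the 1324 listed genes, 2.01, against a median of 0.54 for the 297 other listed genes whose mean count lay within a factor of 2. Uts2r, at 0.72, was above the median of 0.37 of its 441 counterparts, of which 23 had a larger SE. Plch2, at 0.35, was near the median of 0.33 of its 393 counterparts, of which 168 had a larger SE. By edgeR, the authors' deposited table gave 8.40 for Uts2r, 4.38 for Plch2 and 7.12 for Dgkk, so the tools differed by less than 1 SE for each gene. The member nearest the threshold of 0.05 was Dgkk, for which the authors' deposited table gave adjusted p-values of 0.00736 by DESeq and 0.000195 by edgeR.

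**Figure D1:**
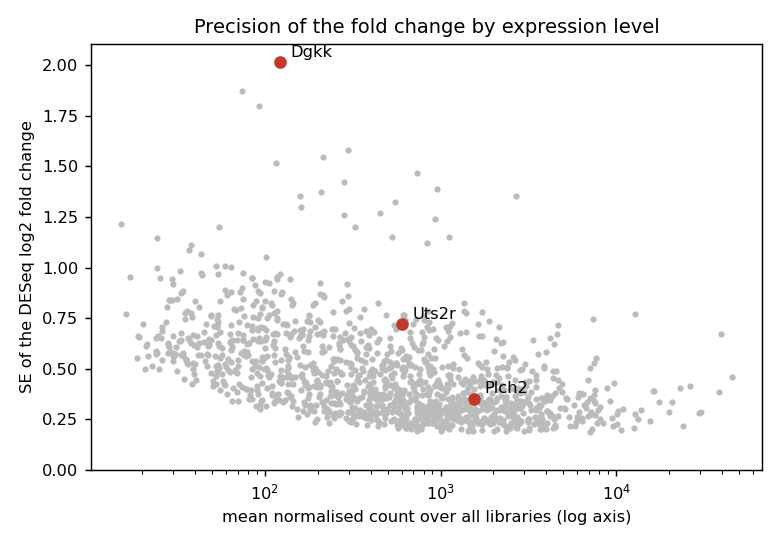
Standard error of the DESeq log2 fold change (vertical axis) against the mean normalised count over all libraries (horizontal log axis), 1 grey point per listed gene, from the authors' deposited table. Dgkk (red, SE 2.01) lies above every other gene, Uts2r (0.72) in the upper part at its level, and Plch2 (0.35) within the bulk.

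Methylation was lower in maternal genistein tumours at all 6 listed sites annotated to or flanking Dagla or Dgkk, and the groups did not overlap at any of them. Among all listed sites 46.9% were lower, 27.8% had groups that did not overlap, and 12.3% were lower with groups that did not overlap. A quasi-binomial model gave 31.6% of listed sites a p under 0.05. The authors listed sites for this same contrast, so nothing is read from these shares and no test is given. Listed sites had a pooled difference of at least 25.0 percentage points, and the member nearest that limit was a Dgkk site at -29.4 points.

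The intronic Dagla site (chromosome 19, position 10267213, mm10) lies 21948 bases from the lower end of the annotated gene and 37664 from its upper end. In control it was methylated in 15 of 18 reads (83.3%), 7 of 12 reads (58.3%) and 15 of 24 reads (62.5%) of replicates 1 to 3. In maternal genistein tumours it was methylated in 0 of 14, 0 of 15, 2 of 28 and 0 of 10 reads of replicates 1 to 4, so that 1 library was at 7.14% and the others at 0%. The counts of 0 allow levels of up to 21.4%, 20% and 30%, from counting error alone. Every control library was thus at least 51.2 points above every maternal genistein library. Group means were 68.1% ± 13.4 (SD, n = 3) and 1.79% ± 3.57 (SD, n = 4). By the size of this difference, -66.3 points, the site ranked 47 of 4327. A long noncoding RNA gene, Gm30042, overlaps Dagla in the annotation, and no overlapping gene was annotated for the other 3 members.

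The other Dagla site (chromosome 19, position 10387233) is intergenic, 82356 bases from Dagla and 1857 bases from Syt7. In control it was methylated at 43.2% of 37 reads, 100% of 27 reads and 78.9% of 19 reads. In maternal genistein tumours it was methylated at 29.5% of 44 reads, 15.8% of 38 reads, 31.0% of 29 reads and 10% of 10 reads. Control replicate 1 was the nearest to the maternal genistein libraries, 12.2 points above the highest of them. Control libraries were therefore spread far more widely, with a mean of 74.1% ± 28.7 (SD, n = 3) against 21.6% ± 10.3 (SD, n = 4). Syt7, which encodes a calcium sensor of vesicle release, was called higher, at 2.77 (SE 0.59, log2) in the authors' deposited table. The table used here holds no fold for Dagla.

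The 4 Dgkk sites (X chromosome, positions 6779777, 6779787, 6779795 and 6779813) lie within 37 bases. Their read counts were equal or differed by 1 within each library, so they rest largely on the same reads and are not 4 independent measurements. The site table annotates them as intergenic between Shroom4 and Dgkk, 93671 to 93707 bases from Dgkk. On the RefSeq annotation of GRCm38.p6 they lie inside Dgkk, 471 to 507 bases past its start at 6779306, and the authors' table of gene and site pairs gives these same distances. The label of these sites therefore depends on which Dgkk start is used.

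Averaged over the 4 sites, control libraries were at 62.5%, 64.7% and 75.8%, with 63 to 96 reads per site. Maternal genistein libraries 1 to 4 were at 30.6%, 50.3%, 25.9% and 27.7%, with 89, 40 to 41, 54, and 15 to 16 reads per site. All control libraries were above all maternal genistein libraries, and maternal genistein replicate 2 was the nearest, 12.2 points under the lowest control. The means were 67.7% ± 7.11 (SD, n = 3) and 33.6% ± 11.3 (SD, n = 4). Single sites varied more than this average: levels within control replicate 2 ran from 45.3% to 87.5%, and within maternal genistein replicate 4, the shallowest library, from 12.5% to 53.3%. The gap between groups was 2.81 points at position 6779813 and 11.5 points at position 6779795.

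**Figure D2:**
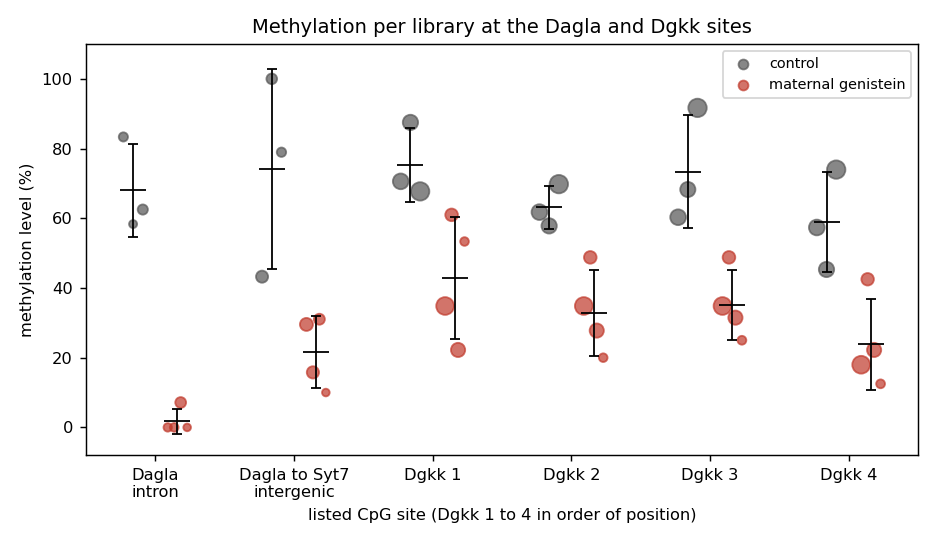
Methylation level (vertical axis, percent) of each library at the 6 listed sites in or flanking Dagla or Dgkk, control in grey and maternal genistein in red. Point area grows with read number, and black bars are mean ± SD. The red points lie under the grey points at each site, with the widest gap, 51.2 points, at the Dagla intron and the narrowest, 2.81 points, at the last Dgkk site.

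No listed site lay in or was annotated beside Plch2 or Uts2r. Within 1 Mb of Plch2 there were 16 listed sites of other annotation, 9 of them lower in maternal genistein tumours. Within 1 Mb of Uts2r there were also 16, of which 1 was lower. Around Dgkk 6 of 7 sites within 1 Mb were lower, 4 of them the sites described above. The 2 sites within 1 Mb of Dagla are its intronic site and the intergenic site near Syt7. Within 1 Mb, listed sites around Uts2r were thus mostly higher and those around Dgkk mostly lower, beside 46.9% lower among all listed sites. The numbers are small, and the 4 Dgkk sites rest largely on the same reads. Within 5 Mb, 9 of 32 sites were lower around Uts2r and 8 of 11 around Dgkk.

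Called genes near the members were counted to show what the surroundings did. Around Uts2r, which lies on chromosome 11 from 121160271 to 121161973, the 5 nearest called genes were all higher. The authors' deposited table gave log2 fold changes of 1.02 for Ogfod3, 15620 bases away, and 0.95 for Hexdc at 42380 bases. On the other side the authors' deposited table gave 3.47 (SE 1.15) for Sectm1a and 5.36 (SE 0.65) for Sectm1b. For Gm11775 it gave 5.71 (SE 0.995), at a mean of 24.4 normalised counts. Sectm1a, Sectm1b and Gm11775 lie 63118 to 106854 bases away, and Sectm1a had a DESeq adjusted p of 0.0362 in the authors' deposited table. Within 1 Mb of Uts2r, 10 of 61 other annotated protein-coding genes were called. By edgeR, neither Ogfod3 (adjusted p 0.0561) nor Hexdc (0.0588) passed 0.05 in the authors' deposited table. Sectm1a and Sectm1b encode related secreted and transmembrane proteins, and reads may be split between such copies.

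From 395879 bases outward the directions were mixed. There Hmga1b, Notum, Arl16, Ccdc137 and Bahcc1 were lower, with log2 fold changes of -1.03, -2.75, -1.14, -0.98 and -2.06 in the authors' deposited table, and Cbr2 was higher at 2.17. Notum encodes an enzyme that inactivates Wnt ligands. Of these 5 lower genes, Arl16 (edgeR adjusted p 0.135) and Ccdc137 (0.0663) did not pass edgeR's threshold in the authors' deposited table. On chromosome 11 as a whole 41 other called genes were higher and 31 lower, beside 58.0% higher among all listed genes.

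Dgkk spans 6779306 to 6948363 on the X chromosome, and all 8 other called genes within 1 Mb were higher. Nudt11 and Nudt10, neighbouring copies of an enzyme that dephosphorylates diphosphoinositol polyphosphates, had log2 fold changes of 5.15 (SE 0.92) and, for the latter, 4.38 (SE 0.80) in the authors' deposited table. They lie 724555 and 606297 bases from Dgkk, and their similarity makes the split of reads between them uncertain. The other 6 were closer to 0: Flicr at 1.58, Ppp1r3f at 1.30, Gripap1 at 0.97, Hdac6, a cytoplasmic deacetylase, at 0.94, Otud5 at 0.88 and Timm17b at 0.78 in the authors' deposited table. Of these, Ppp1r3f (edgeR adjusted p 0.163) and Timm17b (0.079) missed edgeR's threshold in the authors' deposited table. Within 1 Mb of Dgkk, 7 of 32 other annotated protein-coding genes were called. On the X chromosome 62 other called genes were higher and 10 lower.

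Plch2 spans 154983115 to 155064091 on chromosome 4 and had 1 called neighbour within 1 Mb, Ttll10, for which the authors' deposited table gave 1.39 (SE 0.40) and an adjusted p of 0.134 by edgeR. That window holds 56 other annotated protein-coding genes. On chromosome 4 as a whole 92 other called genes were higher and 17 lower, with a median log2 fold change of 1.33, against 4.40 for Plch2. Around Dagla, on chromosome 19 from 10245265 to 10304877, Syt7 was the 1 called gene within 1 Mb. Within 5 Mb, which holds 280 other annotated protein-coding genes, 7 of 8 called genes were lower. On chromosome 19 as a whole 9 called genes were higher and 16 lower.

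**Figure D3:**
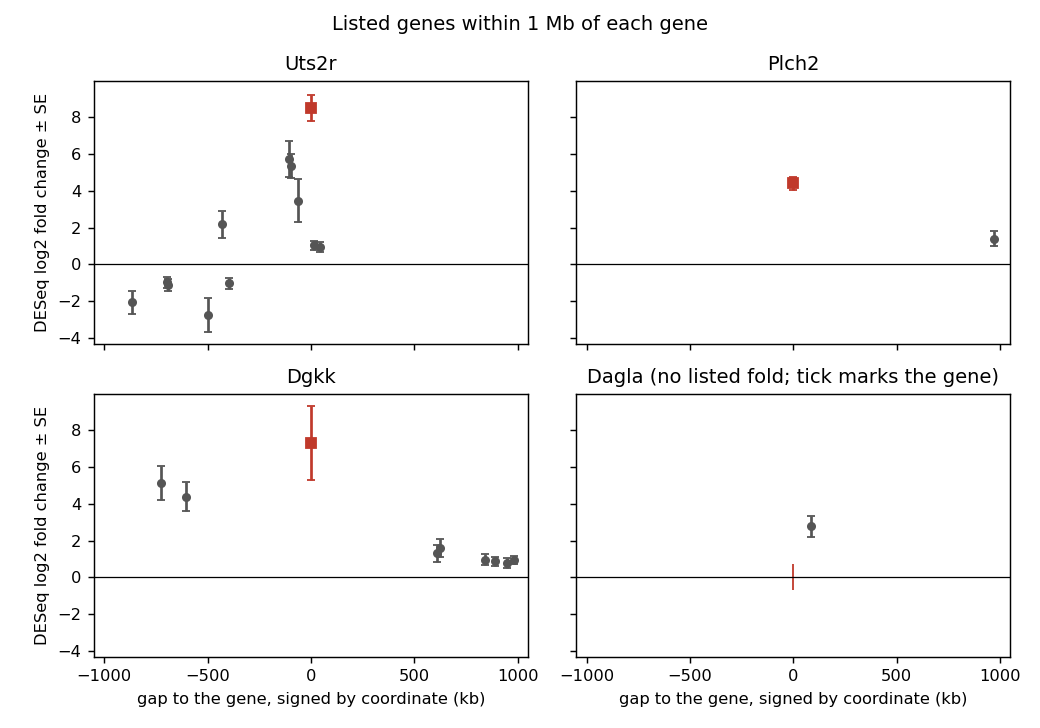
DESeq log2 fold change ± SE of called genes within 1 Mb of each member (vertical axis) against the gap between the genes in kb, negative towards lower coordinates (horizontal axis), from the authors' deposited table; red squares are the members. Near Uts2r the 5 closest genes are above 0, all 8 neighbours of Dgkk are above 0, and Plch2 has 1 called neighbour.

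RRBS read coverage, which the choice of members did not use, was compared for the chromosomes that carry them. The direction of the RNA folds was itself read from this coverage. The signs below are therefore not independent of the RNA directions given here. Relative coverage is the median, over the listed sites of a chromosome, of the log2 read number less the mean of that site over libraries and less the autosomal median of the library. On chromosome 4 (Plch2) the control libraries were at -0.02, -0.20 and -0.20, and the maternal genistein libraries at 0.24, 0.02, 0.21 and -0.05. The difference of 0.25 had an exact permutation p of 0.114 (two-sided), and 0.317 after Benjamini-Hochberg adjustment over 20 chromosomes. On the X chromosome (Dgkk) the control libraries were at -0.29, -0.24 and 0.10, and the maternal genistein libraries at 0.25, 0.41, -0.23 and -0.13. Its difference of 0.22 had an exact permutation p of 0.314 (adjusted 0.449).

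For chromosome 11 (Uts2r) the difference was -0.04, with an exact permutation p of 0.686 (adjusted 0.762). For chromosome 19 (Dagla) it was 0.07, with an exact permutation p of 0.629 (adjusted 0.739). The groups overlapped on all 4 chromosomes, and no chromosome of the 20 had a p under 0.05; the smallest was 0.0571 in an exact permutation test, whose floor here is 0.0286. Around Plch2 the coverage difference was 0.23 within 10 Mb (64 sites) and 0.12 within 5 Mb (48 sites), and within 10 Mb of Uts2r it was -0.03 (53 sites). Within 10 Mb it was -0.08 for Dgkk (16 sites) and -0.06 for Dagla (15 sites), so that the signs for X and chromosome 19 did not hold near these genes. The part of DNA dosage in the RNA folds was not tested.

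**Figure D4:**
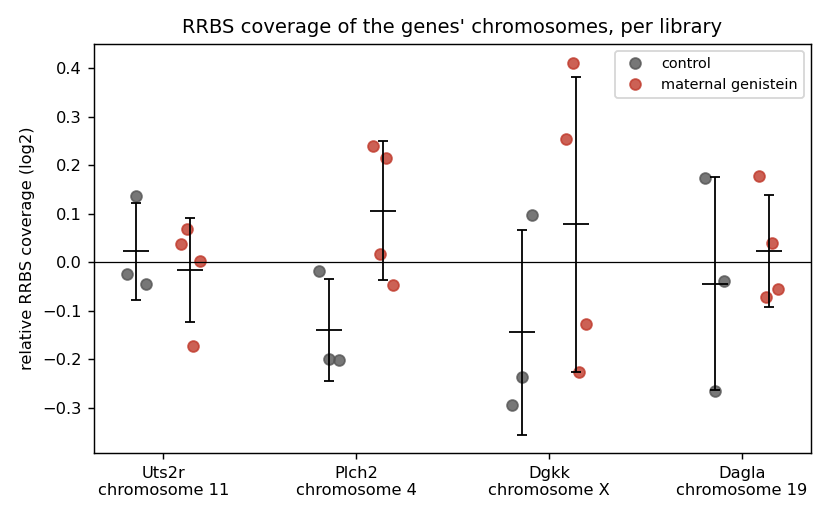
Relative RRBS coverage (vertical axis, log2) of the 4 chromosomes that carry the members, 1 point per library, control in grey and maternal genistein in red, with mean ± SD. The groups overlap on each chromosome; the largest difference of group means, 0.25, is on chromosome 4.

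The wider pathway was described through 8 lists with 136 genes. In all, 15 genes (11%) were called, 8 higher and 7 lower, beside 7.19% of all tested genes. Without the members, which were chosen with their values known, 12 of 132 (9.09%) were called, 5 higher and 7 lower. Beside these, 4.17% of tested genes were listed and higher and 3.02% listed and lower. The list shares count every list gene, tested or not, so they are not on the same base as shares of tested genes. The median log2 fold change of the called genes was -1.27 without the members and 0.93 with them, against 0.89 for all listed genes. With 5 genes on one side and 7 on the other, this median mostly reflects which side holds more genes. With the DESeq threshold lowered to 0.01, 7 of the 8 higher genes but 1 of the 7 lower genes, Rgs2, stayed called. By edgeR 13 of the 15 had a false discovery rate under 0.05, beside 70.5% of all listed genes. The remaining genes of the lists were not in the table used here, which does not show that they did not change.

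Upstream of phospholipase C, 5 of 40 receptor and G protein genes were called. Besides Uts2r these were all lower: Chrm1, a muscarinic acetylcholine receptor, at -2.28 (SE 0.74), Rgs2, which shortens Gq signals, at -1.50 (SE 0.39), F2r, the thrombin receptor, at -1.30 (SE 0.43), and Gna14, a Gq-family subunit, at -1.25 (SE 0.40) in the authors' deposited table. By edgeR, Gna14 did not pass 0.05 (adjusted p 0.0824) in the authors' deposited table. The ligand genes Uts2 and Uts2b were not in that table. Of 15 phospholipase C genes 3 were called: besides Plch2, Plcg2, the form used by immune receptors, was higher at 0.93 (SE 0.23) and Plcb1, a form activated by Gq, was lower at -1.53 (SE 0.48) in the authors' deposited table. Nor did Plcb1 (edgeR adjusted p 0.0738) in the authors' deposited table.

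Among genes that supply or consume the lipids, Cds1, which returns phosphatidic acid to phosphoinositides, was higher at 1.85 (SE 0.44) in the authors' deposited table. Mogat1, which makes diacylglycerol from monoacylglycerol, was higher at 3.98 (SE 0.89), and Plpp3, a lipid phosphatase that makes it from phosphatidic acid, was lower at -1.46 (SE 0.44) in the authors' deposited table. Dgkk was the 1 called gene of 10 diacylglycerol kinases. Of 10 lipase and endocannabinoid genes Cnr1, the cannabinoid receptor that answers the product of Dagla, was called, at 4.03 (SE 1.39) in the authors' deposited table. Its DESeq adjusted p was 0.047 there, close to the threshold.

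Downstream, none of 22 diacylglycerol effector genes (protein kinases C and D, Ras activators, chimaerins, Munc13 proteins and others) was in the table used here. Of 13 inositol phosphate genes Itpr2, a calcium release channel, was lower at -1.44 (SE 0.46) and Inpp4b, a phosphoinositide phosphatase, was higher at 2.94 (SE 0.76) in the authors' deposited table.

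**Figure D5:**
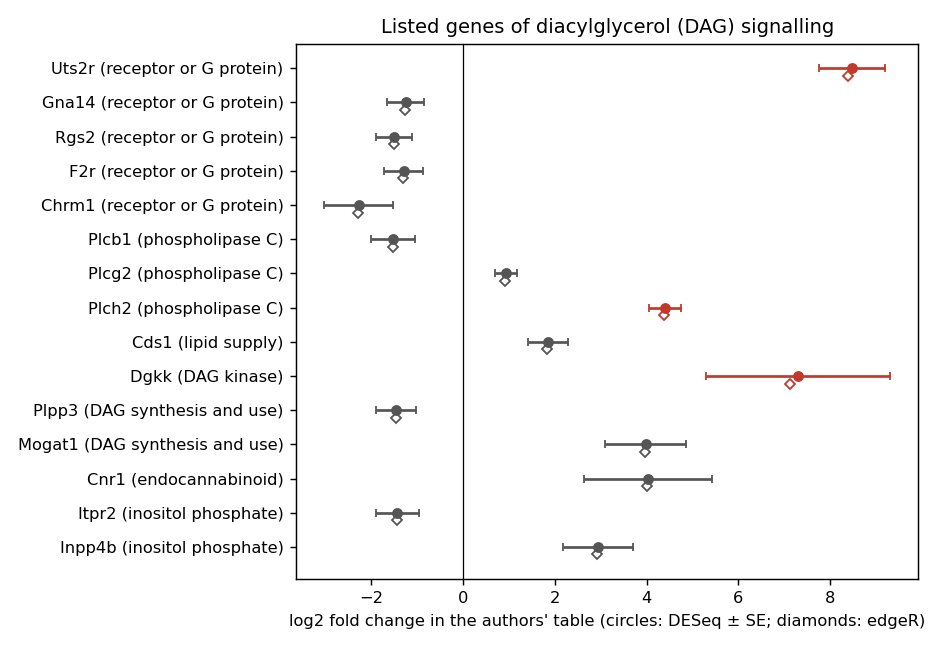
Log2 fold change (horizontal axis; circles DESeq ± SE, diamonds edgeR) of the 15 called genes of the pathway lists, by role, from the authors' deposited table, with members in red. Uts2r, Dgkk and Plch2 have the largest positive values, and 4 of the 5 receptor and G protein genes are below 0.

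Markers of cell types that the tumours could hold were counted for the same contrast. The authors' deposited table gave 23160 mean normalised counts for the luminal keratin Krt18, so an epithelial marker was abundant. Of 10 basal and myoepithelial markers 4 were called, all higher, and of 10 luminal markers 1 was higher and 3 were lower, beside 4.17% of all tested genes that were listed and higher and 3.02% listed and lower. Of other types, 1 of 8 skeletal muscle, 1 of 10 neuronal and neuroendocrine, 1 of 8 endothelial, 1 of 6 macrophage and 2 of 10 lymphocyte and plasma cell markers were called, all higher. No smooth muscle and pericyte, fibroblast or adipocyte marker was called. In all, 11 of 82 markers were higher and 3 lower. Markers were counted whether or not they were tested, so these counts are not on the same base as shares of tested genes. Summed marker levels per group could not be given from this table, and the part of cell composition in the members' folds was not tested.

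Listed sites were also counted over the pathway lists, where a site between genes is counted for a list gene on either side. Without the members there were 44 sites at 32 genes, 15 lower and 29 higher, and the groups did not overlap at 11 of them, beside 46.9% lower and 27.8% not overlapping among all listed sites. Receptor and G protein genes had 16 sites at 10 genes. The groups did not overlap at 7 of these sites, which lie at Bdkrb2, Ednrb, Lpar1, Ptgfr and Uts2b, and they overlapped at each site of Adra1a, Cckar, Ednra, Ghsr and Tacr1. The Uts2b site, in an intron of a gene for a urotensin-related ligand of Uts2r (chromosome 16, position 27369649), went from 53.1% ± 23.0 (SD, n = 3) to 88.7% ± 2.58 (SD, n = 4) between the control and maternal genistein means, with 59 to 125 reads per library. Its groups did not overlap. Ednrb, an endothelin receptor gene, had sites in both directions. Means were 35.8% ± 25.6 against 95.5% ± 8.97 in its 3' untranslated region, where the groups did not overlap. An intronic site had 86.9% ± 1.80 against 37.2% ± 41.3. An exonic site had 36.7% ± 14.3 against 65.1% ± 29.4, and the groups overlapped at both of these sites.

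Phospholipase C genes had 5 sites at Plcb1, Plce1 and Plcg2, 4 of them higher, and the groups overlapped at all 5. Among all listed sites the groups did not overlap at 27.8%, and 5 sites are too few to set against that share. Plcb1, lower in RNA, had 2 intronic sites with higher means in maternal genistein tumours, and Plcg2, higher in RNA, had an intronic site that was higher and a flanking site that was lower. Phosphoinositide supply genes with sites were Cds1, Pi4k2a, Pip4k2b and Pip5k1b, and lipid phosphatase and acyltransferase genes were Lpin1, Mogat1, Plpp1 and Plpp3. Other diacylglycerol kinase genes with a site were Dgkg and Dgkh, both with higher means and overlapping groups, against the lower levels at Dgkk. The cannabinoid receptor genes Cnr1 and Cnr2 had 1 flanking site each, both with higher means and overlapping groups, against the lower levels at Dagla.

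Effector genes had 7 sites at Chn2, Prkcb, Prkch, Prkd2 and Rasgrp3, 3 lower and 4 higher. The groups did not overlap at 1 of them, in an intron of Rasgrp3, a diacylglycerol-activated Ras activator, where the control mean was 58.9% ± 16.1 (SD, n = 3) and the maternal genistein mean 92.1% ± 12.6 (SD, n = 4). A listed region in an intron of Prkce, a protein kinase C gene, spans 86536549 to 86536586 on chromosome 17 and holds 4 CpGs. The authors' deposited table gave it group levels of 14.3% (control) and 69.6% (maternal genistein). Both inositol phosphate sites had groups that did not overlap. The share among all listed sites was 27.8%, and these effector and inositol phosphate sites are too few to set against it. Itpr1 had an intronic site with means of 65.8% ± 23.1 (control) and 13.5% ± 9.09 (maternal genistein), and Inpp4b an intronic site at 70.2% ± 4.44 and 100%.

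Among sites assigned to other genes, those whose levels followed the members' sites most closely over the 7 libraries were sought. The deepest site counted for Dagla, at 10387233, is the intergenic one 1857 bases from Syt7, so its profile may not be that of Dagla. The sites that followed it were in introns of 5730455P16Rik on chromosome 11, B130024G19Rik on chromosome 7 and Adamts16 on chromosome 13. Their Pearson's r was 0.98, 0.97 and 0.96. The 4 Dgkk sites had equal read totals of 427, and position 6779813 was taken; here the sites were upstream of Phf6 on the X chromosome and in introns of Prdm16 on chromosome 4 and St8sia4 on chromosome 1, each with a Pearson's r of 0.97. The search covered 2296 sites for Dagla, of which 40 had an r over 0.9, and 2297 for Dgkk, of which 27 did. All sites share the libraries and were listed for the same group difference, so these values only describe. The Prdm16 site is 1 of the 16 listed sites within 1 Mb of Plch2. RNA levels per library, which would allow the same for expression, were not used here.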

How the data were processed

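The data comprise 7 RNA-seq and 7 RRBS libraries, grouped by their titles. Per the submitters' processing notes, the tools were Bismark, Trim Galore, FastQC, HTSeq, STAR, DESeq and R 3.6.1, with builds mm10 and GRCm38; roles and other versions are not given there. Per the file headers, the authors' RNA table gives a signal column (normalised counts averaged over libraries), log2 fold changes and SE, p-values and test scores from DESeq and edgeR, and it has 1333 lines for 1324 genes. The authors deposited methylated and unmethylated read counts, percent methylation, differences (a signed score) and p-values per CpG site, and the mean methylation of regions as a fraction. Listed sites have a q-value of at most 0.00959 and at least 10 reads in every library, and libraries held 113967 to 226194 reads at them (median 18 to 41 per site), with maternal genistein replicate 4 the shallowest.

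From the deposited counts, levels were computed per library and averaged with equal weight. A quasi-binomial model with an F test over all 4327 sites was used for counts only, after a test on simulated data. Coverage was compared by an exact permutation test (35 splits). Intervals for counts of 0 use 3 counts and cover counting error only. Genes were matched by Ensembl identifier (1324 of 1324) and placed by symbol (1269) on RefSeq GRCm38.p6, which also gave promoters for 3 members. Members and lists were chosen with earlier results of these data known. A gene was left out of the lists and is not reported here. Named genes were the members, list genes with a call, site or region, called genes within 1 Mb, and the 3 most alike sites per member. Alternatives were edgeR values, stricter thresholds, pooled reads, other windows, each library left out, and a replicate block. Python 3.11.15, numpy 2.4.6, pandas 2.3.3, scipy 1.17.1 and matplotlib 3.10.9 were used. Whether RNA counting used strand is not given in the sources used here.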

Additional observations from a re-analysis of the deposited data

Results flagged for a closer look

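At the intronic Dagla site, maternal genistein replicate 3 stood apart from the other 3 libraries of its group, at 7.14% (2 of 28 reads) against 0% in each of them. The interval of this level (exact Clopper-Pearson, 95%) ran from 0.877% to 23.5%, and it was also the deepest library of the group at this site. With the other 3 libraries tied at 0%, any methylated read in the fourth sets it apart, so the flag says nothing beyond these 2 reads.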

How the results depend on the processing

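Methylation differences at the 6 member sites kept their sign with reads pooled and without each library, between -71.1 and -58.6 points at the Dagla intron, -67.9 and -39.5 at the site towards Syt7, and -44.9 and -25.6 over the 4 Dgkk sites. A minimum of 20 reads in every library left no member site. The edgeR folds kept the sign of all 3 called members. At a DESeq adjusted p under 0.01, 7 of the 8 higher and 1 of the 7 lower pathway genes stayed called. Coverage differences without each library ranged from 0.20 to 0.29 for chromosome 4, 0.09 to 0.34 for X, -0.0873 to 0.0397 for chromosome 11 and -0.0477 to 0.15 for chromosome 19. The sign turned for chromosome 11 without control replicate 2 (0.0397) or maternal genistein replicate 3 (0.00843) and within 20 Mb (0.0182), for chromosome 19 without control replicate 2 (-0.0477) and within 10 Mb (-0.0623) and 20 Mb (-0.0630), and for X within 10 Mb (-0.0800) and 20 Mb (-0.0126); the cause was not tested. Listed sites with a quasi-binomial p under 0.05 numbered 1369 (31.6%), 2413 with a chi-square reference, 437 at 20 reads and 985 to 1271 without each library.

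No pairing by replicate number was seen in the RRBS levels. Deviations of same-numbered libraries had correlations of 0.022, 0.009 and -0.032, against -0.073 to 0.053 for differently numbered libraries. These values cannot exclude a pairing by litter or batch, and the RNA libraries were not checked. With a replicate block 999 sites had a quasi-binomial p under 0.05, and coverage differences were 0.30 for chromosome 4, 0.29 for X, -0.04 for chromosome 11 and 0.09 for chromosome 19. RNA depth per library was not used here, so its limits could not be given.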
